A study of Mus musculus with 7 samples.

Results

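The common gamma chain family is described here by 9 genes of 53379 in a gene count table: the shared chain Il2rg, the partner chains Il2rb, Il7r, Il2ra, Il15ra, Il4ra and Il21r, and the kinases Jak1 and Jak3. They were chosen by gene symbol, each matched 1 row of the table by its Ensembl identifier, and 9 of 9 passed the filter on low counts. The libraries come from natural killer (NK) cells of C57BL/6 mouse spleen, sorted directly ex vivo as viable CD3- cells that carry NK1.1, NKp46, CD49b and CD45 (written C45 in the labels). There were 4 Hhex KO libraries, labelled as a knockout of the homeobox transcription factor gene Hhex, and 3 Cre control libraries. The sources used here give neither the promoter that drives Cre nor the age and sex of the mice, nor do they state whether each library is from 1 animal, so p-values measure the spread between these libraries.

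Receptors of this family carry the signals of interleukin-2 (IL-2), IL-4, IL-7, IL-15 and IL-21. The gamma chain joins a partner chain that gives each receptor its ligand, JAK3 sits on the gamma chain and JAK1 on the partner, and the activated kinases phosphorylate STAT transcription factors. NK cells depend on IL-15, which is held by IL-15R alpha, often on a neighbouring cell, and is read by the beta and gamma chains on the NK cell. IL-7R alpha is known from T cells, innate lymphoid cells and immature or thymic NK cells, and IL-2R alpha, added to the beta and gamma chains, gives the high-affinity IL-2 receptor.

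Total counts ranged from 10589915 to 18414034 per Hhex KO library and from 11482273 to 18456404 per Cre control library. Hhex itself was at 54.2 to 64.8 CPM (read counts scaled to library size by the trimmed mean of M values) in Hhex KO and at 93.5 to 96.1 CPM in Cre control. Its total in Hhex KO was thus 0.614 of that in Cre control, with 732 to 987 reads per Hhex KO library. Counts per gene do not show which exons these reads come from, so the deletion itself was not examined. Of 16 genes that define NK cells, among them Ncr1, Klrb1c, Itga2 and Eomes, 0 passed the test (adjusted p below 0.05 by edgeR's quasi-likelihood test, adjusted over all 12161 genes tested). Of all genes tested 4.56% passed, so 0 of 16 is near that share. The median log2 fold change of the 16 was -0.14. Their groups were apart only for Gzmb (-0.59 ± 0.14, adjusted p = 0.0539), Itgam (-0.41 ± 0.14) and Ptprc (-0.33 ± 0.15), all lower in Hhex KO. Of 16 ILC1 markers (type 1 innate lymphoid cells, close kin of NK cells that stay in tissues), 12 rose and 1 fell, Il7r being among those that rose. Of all genes tested, 2.68% rose and 1.87% fell. The list was chosen with earlier results of these data known. The summed level of the 16 was 1306 to 1496 CPM in Hhex KO and 790.3 to 898.0 CPM in Cre control. It includes Il7r itself, at 130 to 166 CPM in Hhex KO and 37.2 to 50.1 CPM in Cre control. Hhex KO replicate 1 had the highest level of the proliferation gene Mki67, at 223 CPM. Hhex KO replicates 2 to 4 had 32.5 to 55.1 CPM of it and Cre control 7.79 to 26.3 CPM. Replicate 1 did not stand out in Top2a, another proliferation gene, at 226, 204, 226 and 67.8 CPM in Hhex KO replicates 1 to 4. Cre control had 25.0 to 83.2 CPM of Top2a. Of 12 proliferation genes, 4 rose and 0 fell, against 2.68% and 1.87% of all genes tested. Hhex KO replicates 2 and 3 were closer to each other (chi-square of their counts per degree of freedom 10.4) than either was to replicates 1 and 4 (62.8 to 71.5). Hhex KO replicate 4 carries the library number 95, the other 6 carry numbers from 20 to 28, and what the numbers stand for is not stated.

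The family split into genes that moved and genes that did not pass the test. Il7r and Il2ra rose in Hhex KO and Il4ra fell, while Il2rg, Il2rb, Il15ra, Il21r, Jak1 and Jak3 did not pass. Thus 3 of 9 members were called, 2 higher and 1 lower, against 4.56% of all genes tested, 2.68% higher and 1.87% lower. The groups did not overlap for 5 of 9 members: Il7r, Il2ra and Jak3 were higher in every Hhex KO library, as were 9.37% of all genes tested, and Il4ra and Il21r were lower in every one, as were 9.98%. The median log2 fold change, Hhex KO over Cre control, was -0.04 for the 9 members and 0.02 for all genes tested, with members running from -1.43 to 1.90. In a bulk sample, fewer cells with a transcript and less of it per cell cannot be told apart.

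**Figure D1:**
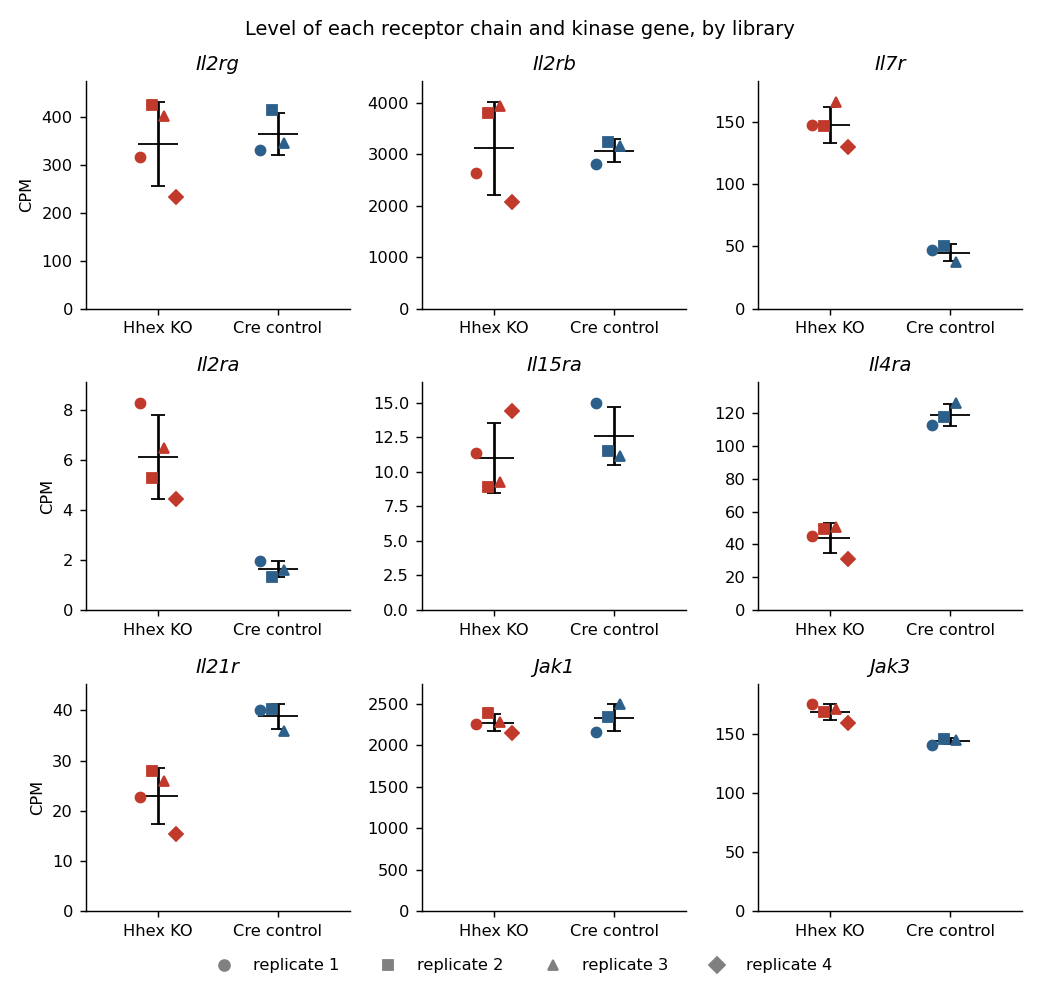
Level of each of the 9 genes in CPM (linear axes from 0) in 4 Hhex KO and 3 Cre control libraries; a symbol is 1 library, the wide dash is the group mean and the bar its SD. Il7r and Il2ra are higher in every Hhex KO library, Il4ra and Il21r are lower in every one, and the groups overlap for Il2rg, Il2rb, Il15ra and Jak1.

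Il2rg (ENSMUSG00000031304.18, chromosome X, 101264378 to 101268255 on GRCm38) encodes the shared gamma chain itself. Its level was 316, 425, 403 and 234 CPM in Hhex KO replicates 1 to 4 and 331, 415 and 347 CPM in Cre control replicates 1 to 3. The groups overlapped, and the widest gap lay inside Hhex KO, between replicates 2 and 4. The log2 fold change was -0.08 ± 0.21 (SE; adjusted p = 0.904), with a 95% interval of -0.55 to 0.39.

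Il2rb (chromosome 15, 78479256 to 78495271) encodes the beta chain used for both IL-2 and IL-15 and was the most abundant member. It stood at 2629, 3798, 3941 and 2080 CPM in Hhex KO and at 2816, 3235 and 3150 CPM in Cre control. Hhex KO replicates 2 and 3 lay above every Cre control library, and replicates 1 and 4 lay below every one, so that the spread in Hhex KO (SD 905 CPM, n = 4) was wider than in Cre control (SD 221 CPM, n = 3). Its log2 fold change was 0.02 ± 0.23 (adjusted p = 0.979; 95% interval -0.51 to 0.55). Set against Il2rg within each library, the libraries lay closer together: the ratio of Il2rb to Il2rg in TPM (a level per length of exon, scaled to the library) was 4.63 to 5.44 in Hhex KO and 4.35 to 5.06 in Cre control.

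Il15ra (chromosome 2, 11705290 to 11734317) encodes the chain that holds IL-15 for presentation. Its level was low in both groups, 11.4, 8.88, 9.25 and 14.4 CPM in Hhex KO and 14.99, 11.5 and 11.2 CPM in Cre control. These ranges overlapped, and the log2 fold change of -0.20 ± 0.21 did not pass the test (adjusted p = 0.715; 95% interval -0.67 to 0.28).

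Il2ra (ENSMUSG00000026770.5, chromosome 2, 11642807 to 11693193) encodes CD25, the IL-2R alpha chain, and had the largest positive fold change of the 9 genes. The table held 128, 92, 110 and 50 reads of it in Hhex KO and 26, 15 and 30 reads in Cre control. Scaled to library size, these were 8.29, 5.27, 6.48 and 4.43 CPM in Hhex KO and 1.95, 1.32 and 1.62 CPM in Cre control. Every Hhex KO library stood above every Cre control library, and the level was low throughout. Il2ra rose by 1.90 ± 0.29 on the log2 scale, 3.74-fold (adjusted p = 0.00955). Without Cre control replicate 3 the log2 fold change was still 1.90, but the call was lost (adjusted p = 0.0651). The highest Hhex KO library, replicate 1, was also the highest in Mki67, though not in Top2a. Without replicate 1 the log2 fold change of Il2ra was 1.71 (adjusted p = 0.0228). Foxp3, which marks the regulatory T cells that carry much CD25, was at 0 to 0.172 CPM in Hhex KO and 0 to 0.264 CPM in Cre control.

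Il7r (ENSMUSG00000003882.5, chromosome 15, 9505788 to 9530176) encodes CD127, the IL-7R alpha chain. It was at 148, 146, 166 and 130 CPM in Hhex KO and at 47.4, 50.1 and 37.2 CPM in Cre control. The lowest Hhex KO library, replicate 4, was still well above the highest Cre control library, replicate 2. Il7r rose by 1.72 ± 0.15 on the log2 scale, 3.29-fold (adjusted p = 5.13e-04). T cells also express Il7r: of 17 T cell markers, 12 were tested, 2 rose (Trbc2 and Themis) and 0 fell. Of all genes tested, 2.68% rose and 1.87% fell. The summed level of the 17 was 605 to 687 CPM in Hhex KO and 469 to 539 CPM in Cre control. The median log2 fold change of the 12 tested was 0.63. The T cell receptor subunit gene Cd3d was at 36.8, 57.2, 49.7 and 30.6 CPM in Hhex KO and at 20.5, 30.3 and 16.5 CPM in Cre control, with no overlap, and its log2 fold change of 0.97 ± 0.27 did not pass (adjusted p = 0.0890). Cd3e (0.87 ± 0.29), Cd3g (0.72 ± 0.25) and Cd5 (1.04 ± 0.39) did not pass either, and their groups overlapped. The T cell coreceptor genes were not tested: Cd8a was at 0 to 0.458 CPM in Hhex KO and 0 to 0.225 CPM in Cre control, and Cd4 at 0.0886 to 2.91 CPM in Hhex KO and 0.0749 to 0.968 CPM in Cre control. Of 10 markers of type 2 and type 3 innate lymphoid cells, which also carry IL-7R alpha, 3 were tested. Of these, 0 passed, near the 4.56% of all genes tested. The summed level of the 10 was 247 to 280.1 CPM in Hhex KO and 304 to 364 CPM in Cre control, and Il5, Il13 and Il22 were at 0 throughout. The part of ILC1 or T cell transcripts in the rise of Il7r was not tested.

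The promoters of the 3 genes that passed the test are shown because they differ in what they hold in the 300 bases around the start site, 250 before it and 50 after it, from RefSeq on GRCm38.p6. The windows are chr15:9529827-9530126 on the minus strand for Il7r, chr2:11642542-11642841 on the plus strand for Il2ra and chr7:125552021-125552320 on the plus strand for Il4ra. Capitals mark matches, on either strand, to 5 motifs: TTCNNNGAA (bound by STAT factors), GTAAACA (FOXO), TGTGGT (RUNX), ACTTCC (ETS) and ATTAA (a core for homeodomain proteins).
Il7r: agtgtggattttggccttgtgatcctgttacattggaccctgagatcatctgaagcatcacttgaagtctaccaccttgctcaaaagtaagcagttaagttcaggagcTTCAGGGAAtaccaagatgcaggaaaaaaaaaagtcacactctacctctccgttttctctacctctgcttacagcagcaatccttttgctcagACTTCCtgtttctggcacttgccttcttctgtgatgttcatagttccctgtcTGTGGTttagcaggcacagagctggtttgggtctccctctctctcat
Il2ra: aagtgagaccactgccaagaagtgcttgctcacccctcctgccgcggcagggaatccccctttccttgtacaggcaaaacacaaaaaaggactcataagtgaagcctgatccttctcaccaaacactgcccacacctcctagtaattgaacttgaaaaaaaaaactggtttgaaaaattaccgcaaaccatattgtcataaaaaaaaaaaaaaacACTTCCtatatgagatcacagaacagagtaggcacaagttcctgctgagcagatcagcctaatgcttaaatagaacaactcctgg
Il4ra: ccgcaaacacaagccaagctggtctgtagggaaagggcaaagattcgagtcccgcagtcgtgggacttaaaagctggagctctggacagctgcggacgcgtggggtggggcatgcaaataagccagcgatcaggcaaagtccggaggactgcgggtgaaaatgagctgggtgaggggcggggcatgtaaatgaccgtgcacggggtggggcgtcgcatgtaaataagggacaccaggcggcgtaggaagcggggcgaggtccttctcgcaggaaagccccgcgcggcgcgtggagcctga
The Il7r window held the STAT motif with its first base 142 bases before the start site, the ETS motif 49 bases before it and the RUNX motif just after it. Il2ra held the ETS motif alone, 35 bases before the start site, and Il4ra held 0 of the 5. Among all 32851 promoter windows of the same length, 8.3% held the STAT motif, 3.65% the FOXO motif, 16.8% the RUNX motif, 23.8% the ETS motif and 27.1% the homeodomain core. Windows were found for 8 of the 9 genes, and of these only Il7r had the STAT motif and only Il21r the FOXO motif, where it overlapped a RUNX match. A match is a description of letters and says nothing of binding.

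Il4ra (ENSMUSG00000030748.9, chromosome 7, 125552120 to 125579474) encodes the IL-4R alpha chain, which pairs with the gamma chain for IL-4 or with IL-13R alpha 1 for IL-4 and IL-13. Its level was 44.9, 49.7, 50.8 and 30.8 CPM in Hhex KO and 113, 117 and 126 CPM in Cre control. The groups were far apart, with no Hhex KO library reaching 51 CPM and no Cre control library under 113 CPM. Il4ra fell by 1.43 ± 0.17 on the log2 scale, to 0.371 of its level in Cre control (adjusted p = 0.00283). B cells and myeloid cells also express this gene. Of 11 B cell markers 5 were tested, 2 rose (Cd79b and Cd22) and 0 fell, against 2.68% and 1.87% of all genes tested. The summed level of the 11 was 306 to 484 CPM in Hhex KO and 228 to 280.3 CPM in Cre control. Of 15 myeloid markers 12 were tested and 0 passed, near the 4.56% of all genes tested. The summed level of the 15 was 783 to 1546 CPM in Hhex KO and 643 to 1055 CPM in Cre control. Much of this sum was Itgax, at 684 to 952 CPM in Hhex KO and 469 to 825 CPM in Cre control. Hhex KO replicate 2 was highest for Lyz2 (200 CPM), S100a8 (112) and S100a9 (146). The other Hhex KO libraries had 5.05 to 30.9, 3.90 to 18.3 and 4.83 to 26.5 CPM of these. Cre control had 25.3 to 86.1, 6.27 to 12.1 and 6.43 to 15.8 CPM. The part of such transcripts in the level of Il4ra was not tested.

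Il21r (chromosome 7, 125603429 to 125633570), which encodes the IL-21 receptor chain, lies 24.0 kb from Il4ra. It was at 22.8, 27.95, 25.98 and 15.3 CPM in Hhex KO and at 40.02, 40.4 and 36.0 CPM in Cre control. The groups did not overlap, as for 19.3% of all genes tested, but the log2 fold change of -0.75 ± 0.19 missed the threshold (adjusted p = 0.0651; 95% interval -1.18 to -0.31). Without Hhex KO replicate 4, its lowest library, the log2 fold change was -0.60 and passed (adjusted p = 0.0246).

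Jak1 (chromosome 4, 101152367 to 101265282), the kinase of the partner chains, was at 2264, 2397, 2287 and 2150 CPM in Hhex KO and at 2167, 2338 and 2495 CPM in Cre control. These overlapped, and Jak1 had -0.04 ± 0.13 as its log2 fold change (adjusted p = 0.930; 95% interval -0.33 to 0.26). Jak3 (chromosome 8, 71676296 to 71690575), the kinase of the gamma chain, was at 175, 169, 171 and 159 CPM in Hhex KO and at 141, 146 and 145 CPM in Cre control. All 4 Hhex KO libraries were above the 3 Cre control libraries, by a small margin. The log2 fold change of 0.23 ± 0.10 did not pass the test (adjusted p = 0.255; 95% interval 0.01 to 0.45). Raver2 overlaps Jak1 on the opposite strand with 157 to 306 reads per library, and Insl3 overlaps Jak3 on the same strand with 1 to 30 reads, few beside the 1657 to 2948 reads of Jak3 per library.

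**Figure D2:**
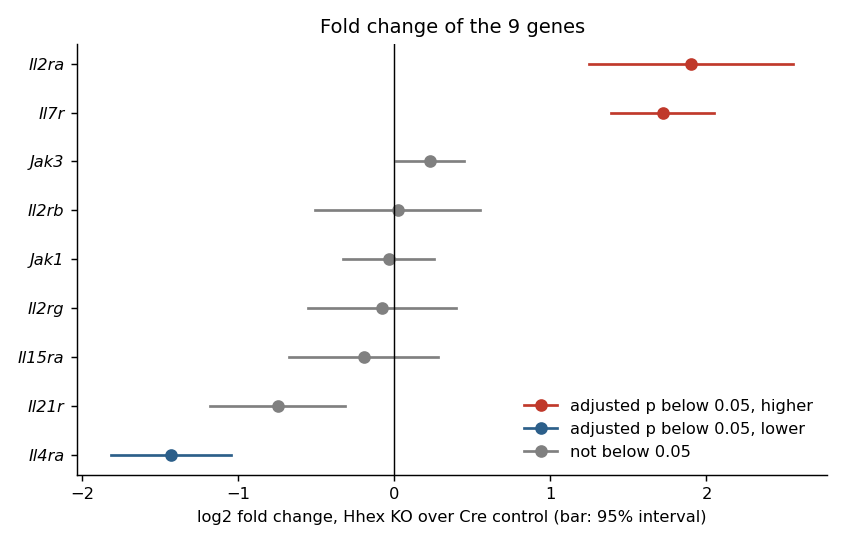
Log2 fold change of each of the 9 genes, Hhex KO over Cre control (points), with its 95% interval (bars) from edgeR; color shows whether the adjusted p was below 0.05. Il2ra and Il7r lie at 1.90 and 1.72, Il4ra at -1.43, and the interval of Il21r, -1.18 to -0.31, leaves out 0 although its adjusted p is 0.0651.

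Levels per length placed the 9 genes on a scale from under 1 to over 2000 TPM. In Hhex KO the order was Il2rb (2304 ± 481 TPM, SD, n = 4), Jak1 (1017 ± 82.9), Il2rg (460.0 ± 85.1), Il7r (102 ± 10.03), Jak3 (102 ± 11.5), Il4ra (23.5 ± 4.12), Il21r (22.1 ± 4.28), Il15ra (8.11 ± 2.53) and Il2ra (3.50 ± 1.21). In Cre control it was Il2rb (2308 ± 230 TPM, SD, n = 3), Jak1 (1043 ± 120), Il2rg (491 ± 56.4), Jak3 (86.6 ± 5.05), Il4ra (64.0 ± 6.66), Il21r (37.5 ± 0.716), Il7r (30.9 ± 3.42), Il15ra (9.08 ± 1.27) and Il2ra (0.919 ± 0.174). No neighbours in the order overlapped in Cre control. In Hhex KO, Il7r (92.3 to 114 TPM) overlapped Jak3 (92.7 to 118 TPM), and Il4ra (17.6 to 27.05 TPM) overlapped Il21r (15.8 to 24.8 TPM). Il7r thus stood in place 4 in Hhex KO, level with Jak3, and in place 7 in Cre control. Il4ra was in place 6 in Hhex KO and place 5 in Cre control. By mean TPM over the 7 libraries, Il2rb was at place 40 and Jak1 at place 124 of the 53274 genes with a length.

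**Figure D3:**
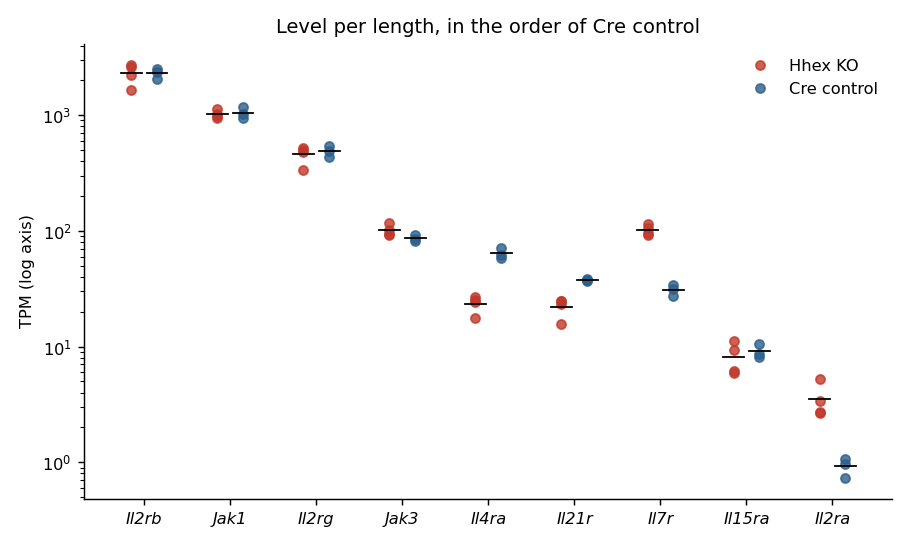
TPM (log axis) of the 9 genes in Hhex KO (left of each pair of columns) and Cre control (right), in the order of their means in Cre control; points are libraries and black lines are group means. Il7r stands at 92.3 to 114 TPM in Hhex KO and at 27.1 to 33.8 TPM in Cre control, while Il2rb, Jak1 and Il2rg lead in both groups.

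Because a receptor is built from several chains, the chains of each receptor were also set against each other within a library, as were the 2 kinases and the neighbouring genes, for 11 ratios in all. These ratios were picked with the values known and carry no scaling between libraries. Relative to Il2rg, Il7r was at 0.176 to 0.285 in Hhex KO and at 0.0549 to 0.0732 in Cre control, both as ratios of TPM values. Il4ra was at 0.0465 to 0.0565 of Il2rg in Hhex KO and at 0.113 to 0.145 in Cre control, and Il21r at 0.0462 to 0.0518 in Hhex KO and 0.0700 to 0.0867 in Cre control. Il2ra was at 0.00104 to 0.00237 of Il2rb in Hhex KO and at 0.000306 to 0.000519 in Cre control, so that even in Hhex KO there were on average 705 Il2rb transcripts to 1 of Il2ra, against 2593 in Cre control. The ratio of Jak3 to Jak1 was 0.0951 to 0.104 in Hhex KO and 0.0785 to 0.0877 in Cre control.

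The groups did not overlap for 8 of the 11 ratios. Each of these 8 holds a gene whose own groups did not overlap, so the count mostly restates the differences of single genes. No share over other gene pairs was computed. They overlapped for the ratio of Il2rb to Il2rg, whose mean log2 ratio differed by 0.09 between Hhex KO and Cre control, and for the ratios of Il15ra to Il2rb (-0.18) and of Il15ra to Il2rg (-0.10). Since the ratios were picked with the values known, they are given as a description, with no test.

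**Figure D4:**
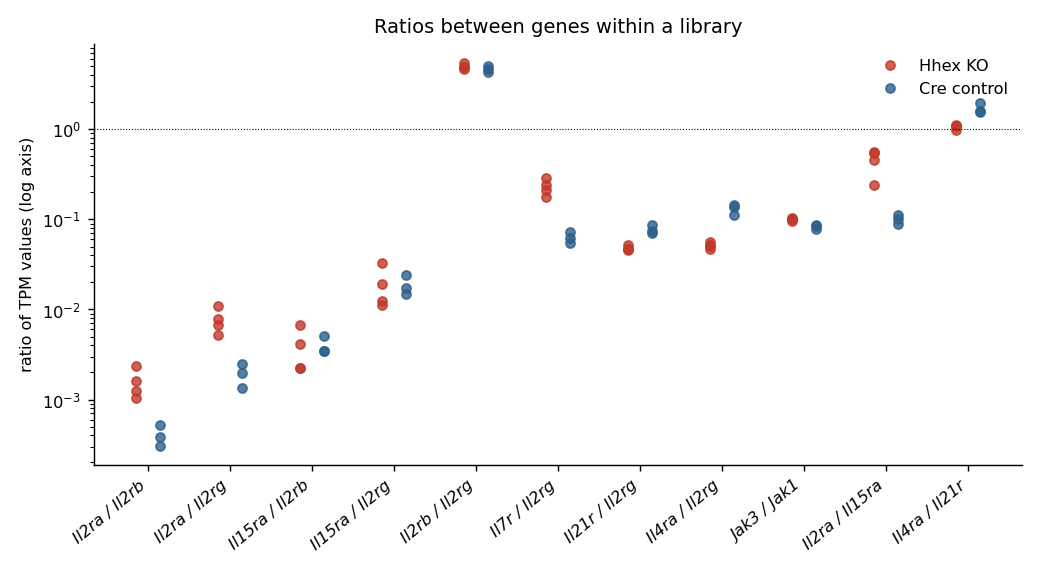
Ratio of TPM values (log axis) for 11 gene pairs, Hhex KO left and Cre control right of each position; a point is 1 library and the dotted line marks equal levels. The groups are apart for Il7r over Il2rg (0.176 to 0.285 in Hhex KO, 0.0549 to 0.0732 in Cre control) and overlap for Il2rb over Il2rg and for both Il15ra ratios.

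The genome position of the genes gave 2 contrasts. Il2ra and Il15ra lie 12.1 kb apart on chromosome 2. The log2 ratio of Il2ra to Il15ra, here of CPM values with no correction for length, was higher in Hhex KO by 2.09. It was at -1.70 to -0.46 in Hhex KO and -3.13 to -2.79 in Cre control. On the other side of Il2ra, Rbm17 had a log2 fold change of 0.03 ± 0.13. On chromosome 7, Il4ra lies between Nsmce1, 60.5 kb away, and Il21r. Nsmce1, which encodes a subunit of the SMC5/6 DNA repair complex, was at 22.7, 29.7, 32.6 and 26.6 CPM in Hhex KO and at 52.5, 43.3 and 42.2 CPM in Cre control, and fell by 0.72 ± 0.15 on the log2 scale (adjusted p = 0.0312). Il4ra was further down than Il21r, since their log2 ratio of CPM values was lower in Hhex KO by 0.67. That log2 ratio was 0.83 to 1.01 in Hhex KO and 1.498 to 1.81 in Cre control. As TPM values, which take length into account, the ratio of Il4ra to Il21r was 0.984 to 1.11 in Hhex KO and 1.56 to 1.94 in Cre control. Around Il7r, Lmbrd2 (-0.0026 ± 0.14) and Spef2 (0.65 ± 0.58) did not pass.

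Of 8 cytokine genes, Il15 and Il7 were tested and 0 passed. Il15 was at 7.605 ± 1.02 CPM in Hhex KO (SD, n = 4) and 6.94 ± 1.79 CPM in Cre control (SD, n = 3), and Il7 at 1.65 ± 0.472 CPM in Hhex KO and 1.47 ± 0.553 CPM in Cre control. Per length, Il15 was at 10.9 ± 2.17 TPM in Hhex KO and 9.86 ± 2.31 TPM in Cre control, close to the level of Il15ra, and Il7 averaged under 1 TPM in both groups. Il9, Il21 and Il13 had 0 reads in all 7 libraries, for which 3 reads allow up to 0.172 to 0.266 CPM in a Hhex KO library and 0.162 to 0.264 CPM in a Cre control library. Of 4 further partner chains only Crlf2, which joins IL-7R alpha to read TSLP, was tested. Crlf2 was at 74.2, 93.2, 87.3 and 56.8 CPM in Hhex KO and at 90.9, 107 and 90.9 CPM in Cre control. Its fold change of -0.31 ± 0.17 on the log2 scale did not pass (adjusted p = 0.398). The chain shared with IL-13, Il13ra1, was under 1 CPM on average in both groups and was not tested.

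Downstream of the receptors, 0 of the 9 other JAK and STAT genes passed the test, near the 4.56% of all genes tested. The STAT genes tied to these cytokines, Stat5a (-0.19 ± 0.11), Stat5b (0.02 ± 0.11), Stat6 (-0.16 ± 0.12) and Stat3 (-0.11 ± 0.15), all had log2 fold changes under 0.2 in size. Among 20 negative regulators, 2 rose and 0 fell, against 2.68% and 1.87% of all genes tested. Socs2, a STAT5-induced inhibitor of cytokine signalling, was at 16.9, 18.4, 15.9 and 20.7 CPM in Hhex KO and at 6.22, 5.28 and 5.19 CPM in Cre control, a rise of 1.69 ± 0.16 on the log2 scale (adjusted p = 0.00104). Cish, another STAT5-induced inhibitor, rose by 0.80 ± 0.17 (adjusted p = 0.0351), and its call was lost without any 1 of 6 libraries (adjusted p 0.0531 to 0.146).

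Of 18 adaptors and effectors tested, 0 rose and 1 fell, near the 2.68% and 1.87% of all genes tested. That gene was Gab2, a scaffold that links these receptors to phosphoinositide 3-kinase, at 20.98, 16.3, 13.4 and 14.4 CPM in Hhex KO and 31.8, 29.7 and 36.3 CPM in Cre control. Gab2 fell by 1.00 ± 0.17 on the log2 scale (adjusted p = 0.0148), and the call was lost without Cre control replicate 1 (adjusted p = 0.0767) or Cre control replicate 3 (0.0945). The scaffold gene Irs2, which serves IL-4 signalling, had the next smallest p, a log2 fold change of -1.57 ± 0.61 that did not pass (adjusted p = 0.218). Its levels were 10.9 to 60.9 CPM in Hhex KO and 38.7 to 136 CPM in Cre control.

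Genes that these cytokines can induce went both ways, with 2 of 17 higher and 3 lower, against 2.68% and 1.87% of all genes tested. Their median log2 fold change was -0.24. Cdk6, a G1 kinase, rose by 1.13 ± 0.17 (adjusted p = 0.00988) and Myc rose by 0.56 ± 0.13 (adjusted p = 0.0481). Osm, the oncostatin M cytokine gene, was at 18.2, 17.8, 13.2 and 12.6 CPM in Hhex KO and 73.9, 52.6 and 44.2 CPM in Cre control, and fell by 1.88 ± 0.21 (adjusted p = 0.00206). Pim1, a STAT5-induced kinase gene, fell by 0.74 ± 0.13 (adjusted p = 0.0198) and Tnfrsf9, the 4-1BB receptor gene, fell by 0.86 ± 0.17 (adjusted p = 0.0244). With 1 library left out, the call of Cdk6 was lost in 1 case (without Cre control replicate 1, adjusted p = 0.0518), that of Tnfrsf9 without any Cre control library (adjusted p 0.0717 to 0.107), that of Pim1 without any Cre control library or Hhex KO replicate 3 (0.0541 to 0.0914) and that of Myc without any Cre control library or Hhex KO replicate 1, 2 or 3 (0.0785 to 0.216).

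The genes most like the called members across the 7 libraries were found among 9453 other tested protein-coding genes whose average log2 CPM was 2 or more, by Pearson correlation of log2(CPM + 1). For Il7r they were Cxcr6 (r = 0.996), Gpr34 (0.993) and Cip2a (0.992). For Il2ra they were Gins3 (0.982), Cd200r1 (0.982) and Ipcef1 (0.980). For Il4ra they were Ing1 (0.992), Cul3 (0.991) and Otud6b (0.990). These values mostly restate the difference between the groups, which all 7 points share.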

How the data were processed

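Per the submitters' processing notes, STAR, featureCounts and the mm10 build were used; the sources used here do not give versions, strand setting or annotation release. Per the labels, a directional kit and 75 bp single-end reads were used. The authors deposited raw read counts per gene (53379 genes, 7 columns, each matched to its sample by the description in the labels, 0 columns unused, 0 rows without a gene). Identifiers were matched without their version number to GENCODE M21 on GRCm38 (99.8%), which gave positions, 1-based, and exon lengths.

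edgeR 4.0.16 in R 4.3.3 was run on the deposited counts of all 7 libraries: filter by group (minimum count 10, minimum total 15), TMM scaling, robust quasi-likelihood F test without covariates, and Benjamini-Hochberg adjustment over 12161 genes, with a call below 0.05. The SE is the log2 fold change divided by the square root of F. TPM used the union of exons. Alternatives tried were scaling by RLE or the upper quartile, testing without a filter or with a stricter one (10 CPM in 3 libraries), voom from limma 3.58.1, plain or with sample quality weights, DESeq2 1.42.0, a replicate block, leaving out each library, and the longest transcript as length. The procedure was tested on simulated data. The chi-square per degree of freedom between replicates was 10.4 or more, a spread beyond counting error, and each library was treated as 1 replicate. This value cannot show whether the libraries come from separate animals.

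The members and lists were chosen with earlier results of these data known, and the ratios and motifs after the values were seen. Named genes are the 9 members; in each pathway list the called genes, or else the 2 with the smallest p; the nearest tested neighbours of called members; and the 3 most correlated genes of each. Named beyond that rule, after their values were seen, are Irs2, Stat3, Stat5b, Ifng, Lta and the marker genes. Limits from counts of 0 cover counting error only.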

Additional observations from a re-analysis of the deposited data

Results flagged for a closer look

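Cish was the only gene among 17 examined (the 9 members and the called pathway genes) with a Hhex KO library far from the others: Hhex KO replicate 2 was at 29.5 CPM, while Hhex KO replicates 1, 3 and 4 had 20.2 to 20.98 CPM and Cre control had 12.1 to 14.0 CPM. Its gap to the nearest library was 0.915 of the group's range, above Dixon's 95% critical value for 4 samples, which chance passes in about 1 in 20 groups. Without that library the log2 fold change of Cish was 0.65 (adjusted p = 0.0531).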

How the results depend on the processing

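Il7r (log2 fold change 1.602 to 1.81) and Il4ra (-1.50 to -1.30) stayed past 0.05 in the same direction in all 15 alternatives, and Il2ra (1.71 to 2.04) in 13 of the 14 in which it was tested, all but the one without Cre control replicate 3. The stricter filter removed Il2ra, which left 1 higher member. Il21r made the lower members 2 with no filter (adjusted p = 0.0178), with DESeq2 (0.00757), with sample quality weights (0.0121) and with the replicate block (0.0420). Leaving out 1 library gave 1 to 2 higher and 1 to 2 lower members. Jak3 passed with sample quality weights (0.0498). Over all genes, the 326 genes called higher and 228 genes called lower became 186 higher with the stricter filter, 625 and 469 with DESeq2, 1534 and 1325 with limma-voom with sample quality weights, and 499 higher with the replicate block; without 1 library they ranged over 91 to 527 higher and 50 to 291 lower. Why these counts differ was not tested, beyond the fewer libraries or genes.

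Same-numbered libraries correlated in their deviations at 0.33, 0.53 and -0.15. So few libraries cannot settle whether they share a batch or day, and the labels do not say. Under the replicate block, run on 6 libraries, the log2 fold changes of Il7r, Il2ra and Il4ra were 1.78, 2.02 and -1.30, all without Hhex KO replicate 4. On the same 6 libraries with no block, Il21r passed as well (adjusted p = 0.0246, with the block 0.0420), and the genes called higher were 527 (with the block 499). Against that fit, Cish lost its call with the block (adjusted p = 0.0515, without it 0.0284) and Ifng gained one (0.0265, without it 0.0851). With 1 library left out, the 8 ratios whose groups were apart kept their sign, as groups without overlap must, so this is no check on them. With the longest transcript as length, the Il2rb mean TPM over the 7 libraries was 1797 (2306 by exon union) and the Il15ra mean TPM 12.5 (8.53). By that length Il21r stood above Il4ra in Hhex KO (22.3 and 20.4 TPM), and Jak3 just above Il7r (102.23 and 101.99 TPM). Il2ra, at 15 to 30 reads per Cre control library, is the member most limited by depth.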

Other observations

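The neighbours of Il4ra were looked at further after its values were seen. Nsmce1, Il4ra and Il21r, in a row on chromosome 7, had log2 fold changes of -0.72, -1.43 and -0.75. The next tested genes beyond them, Kdm8 and Gtf3c1, had -0.01 ± 0.18 (adjusted p = 0.986) and 0.10 ± 0.11 (adjusted p = 0.749). Around Il2ra and Il7r none of the 3 tested genes on either side passed the test.

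Il2, the ligand of the receptor whose alpha chain rose, was read at 0.194 to 0.942 CPM in Hhex KO and 0.270 to 0.528 CPM in Cre control. The filter on low counts left it out. Lta, on the list of cytokine-induced genes, did not pass at 1.17 on the log2 scale (adjusted p = 0.110), nor did Ifng, the interferon gamma gene, at -1.67 (adjusted p = 0.0640), with 35.2 to 113 CPM in Hhex KO and 190 to 266 CPM in Cre control.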
